A study of Mus musculus with 2 samples.

Results

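The mitochondrial ribosomal protein genes were followed in remote heart muscle after an infarct, in mice lacking NRK-2 and in littermate controls. Members were all gene symbols of the deposited table that consist of Mrpl or Mrps, a number and at most 1 further letter. Mrpl54, which lies beside the targeted gene Nmrk2, was left out. The pattern matched 78 of 24542 symbols, and 77 were kept, 48 named Mrpl and 29 named Mrps. The rule itself uses symbols and position and no measured value.

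Both groups were male C57BL/6 mice, studied 7 days after the proximal left anterior descending artery of the heart was ligated for good, and total RNA came from left ventricle with the scar and its border removed. NRK-2 KO mice lack nicotinamide riboside kinase 2, an enzyme of muscle that makes NAD precursors and is encoded by Nmrk2, and the Control mice were their littermates and had the same ligation. The labels list 1 sample for each genotype, whereas the table holds 3 numbered libraries for each, called KO 1 to KO 3 and Control 1 to Control 3 here. They held 28523593, 33086384 and 26975513 counted reads in NRK-2 KO and 22377348, 22794731 and 22831189 in Control. Whether these libraries stand for different mice is not stated in the labels. The p-values therefore measure no more than the spread among these 6 libraries, part or all of which could be technical.

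Nmrk2 was examined first as a check of the labels. It had 808, 9 and 0 reads in NRK-2 KO and 308, 270 and 118 reads in Control, where a count of 0 allows up to 3 reads. The library labelled KO 1 therefore goes against its label, and the main counts below are also given without it. Markers of cell types also differed between libraries. The summed level of 10 cardiomyocyte markers was 46534, 28913 and 48770 CPM (read counts scaled to library size and composition) in NRK-2 KO and 91407, 86060 and 53913 CPM in Control, and 10 of 10 were fitted lower in NRK-2 KO with 0 called. The sum of 8 fibroblast markers was 32443, 39767 and 28657 CPM in NRK-2 KO and 6547, 17796 and 18025 CPM in Control. Of these markers, 8 of 8 were fitted higher with 1 called (Postn). Over all genes tested, 49.0% were fitted lower, 1.09% were called lower and 2.61% were called higher. Macrophage markers summed to 1918, 2598 and 1682 CPM in NRK-2 KO and 710, 1010 and 2056 CPM in Control. Of the 8 macrophage markers tested, 7 were fitted higher and 1 (Cd163, log2 fold change -1.17) lower, with 0 called. The 8 atrial markers summed to 3096, 2535 and 3210 CPM in NRK-2 KO and 1033, 1065 and 194 CPM in Control, most of it in NRK-2 KO from Nppa, which stressed ventricle also makes. Without Nppa the sum was 678, 186 and 188 CPM in NRK-2 KO and 591, 494 and 85.8 CPM in Control, and Bmp10 had 0 reads in all 6 libraries. Myl7 had 127, 1.15 and 0.22 CPM in NRK-2 KO and 205, 162 and 0 CPM in Control. Myl4 and Sln were likewise high in KO 1, Control 1 and Control 2 and low in the other libraries. Dkk3 was higher in every NRK-2 KO library (145 to 170 CPM) than in any Control library (40.9 to 111 CPM). Tbx5 was lower in every NRK-2 KO library (11.1 to 16.8 CPM) than in any Control library (18.5 to 33.8 CPM). Nr2f2 overlapped between the groups, with 20.7 to 23.1 CPM in NRK-2 KO and 11.3 to 24.1 CPM in Control. The part of atrial tissue in the members' values was not tested. Among 5 erythroid markers, Hba-a1 had 8.67, 1.99 and 2.56 CPM in NRK-2 KO and 452, 315 and 1.91 CPM in Control. Hba-a2 had 743, 203 and 121 CPM in NRK-2 KO and 0.69, 1.45 and 238 CPM in Control. In both genes Control 3 was nearer to the NRK-2 KO libraries than to Control 1 and Control 2. This grouping was not seen in Hbb-bs, Hbb-bt or Alas2, and its reason was not tested.

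The mitochondrial ribosome sits in the matrix and makes the few proteins that the mitochondrial genome encodes, which are core subunits of the respiratory chain and of ATP synthase. Its rRNAs come from mitochondrial DNA, whereas all of its proteins are encoded in the nucleus, made in the cytosol and imported. Some of these proteins descend from the bacterial ribosome, and others were added in the mitochondrial lineage. Heart muscle, which depends on oxidative metabolism, is rich in mitochondria.

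The members were divided by origin and by subunit. There were 30 large-subunit proteins of bacterial type, 20 mitochondria-specific large-subunit proteins, 16 small-subunit proteins of bacterial type and 10 mitochondria-specific small-subunit proteins. Mrps30 and Mrps18a carry small-subunit names but sit in the large subunit and were counted there. Mrps36 stood alone, because its product is now known as a component of the alpha-ketoglutarate dehydrogenase complex of the citric acid cycle. The 77 genes were spread over 17 chromosomes, with at most 11 on any of them (chromosome 11). Another symbol's locus overlapped that of 14 members, and without use of strand being stated, reads of such pairs cannot be told apart. Named pseudogenes exist for 3 members (Mrpl23, Mrpl48 and Mrps36) and could share reads with them.

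Since the members lie on many chromosomes, their promoter letters were compared. RefSeq windows from 250 bases before to 50 bases after the start (GRCm38.p6, the assembly behind mm10) were at hand for 69 of the 77 members and for 10960 of the genes tested. For a member the window nearest its start in the deposited table was taken, and for other genes the first one listed. The shares compared below therefore rest on windows chosen in different ways. Motifs of 3 factors known for nuclear genes of mitochondria were searched on both strands, and no matches of different motifs overlapped within a member. The NRF1 motif, which is GCGC, then any base, then TGCGC, was present in 13 of the 69 windows (18.8%), against 9.78% of all windows. The ETS-type motif CCGGAAG, which the GABP factor also binds, was present in 25 (36.2%), against 16.8%. The YY1 motif AAGATGGCG was present in 8 (11.6%), against 2.96%. At least 1 of the 3 was present in 40 members (58.0%), against 26.6% of all windows. Median GC content was 58.3% in the members and 60.7% in all. Windows were also at hand for 52 nuclear genes of subunits of respiratory complexes I and IV and of ATP synthase. Of these, 23.1% held the NRF1 motif, 17.3% the ETS-type motif, 11.5% the YY1 motif and 46.2% any of the 3. The NRF1 and YY1 motifs were thus not particular to the members. A match of letters is a description and does not show that a factor binds there.

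The 200 bases before the start of 4 members are shown for the 2 more frequent motifs, with matches in capitals and each sequence 5′ to 3′ on the strand of its gene. Mrpl12 (chr11:120484437-120484636, plus strand) and Mrpl44 (chr1:79775818-79776017, plus strand, where the match is on the other strand) carry the NRF1 motif. Mrpl51 (chr6:125192000-125192199, plus strand) and Mrpl52 (chr14:54426709-54426908, plus strand, where the match is on the other strand) carry the ETS-type motif. They were chosen because Mrpl51 and Mrpl52 share a motif and had very different fold changes.
Mrpl12: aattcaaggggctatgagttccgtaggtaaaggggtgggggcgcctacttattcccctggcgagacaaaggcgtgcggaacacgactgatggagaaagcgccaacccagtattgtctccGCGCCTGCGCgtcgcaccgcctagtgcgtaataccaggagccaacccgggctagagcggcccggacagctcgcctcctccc
Mrpl44: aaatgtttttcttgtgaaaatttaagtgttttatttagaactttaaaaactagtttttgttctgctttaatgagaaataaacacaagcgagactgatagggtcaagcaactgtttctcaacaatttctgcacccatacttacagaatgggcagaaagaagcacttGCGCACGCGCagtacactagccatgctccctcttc
Mrpl51: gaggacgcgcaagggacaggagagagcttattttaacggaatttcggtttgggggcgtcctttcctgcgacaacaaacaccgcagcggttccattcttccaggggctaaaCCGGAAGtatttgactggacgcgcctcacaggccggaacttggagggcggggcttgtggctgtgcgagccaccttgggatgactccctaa
Mrpl52: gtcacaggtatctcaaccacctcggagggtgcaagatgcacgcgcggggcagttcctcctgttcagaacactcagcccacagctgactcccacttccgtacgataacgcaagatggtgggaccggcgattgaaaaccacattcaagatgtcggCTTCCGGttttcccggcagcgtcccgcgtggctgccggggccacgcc

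Another feature examined was a neighbour that starts back to back with the member. A gene on the opposite strand started within 1000 bases upstream of 26 of the 69 members (37.7%), against 17.2% of all genes tested with a window. The stretches between such starts were short, and 4 are shown because the fold changes of the pairs on either side of them are compared further on. They lie between Mrps11 and Mrpl46, both members (chr7:78783090-78783130, plus strand), between Mrpl30 and Mitd1 (chr1:37890412-37890476, plus strand), between Mrps12 and Sars2 (chr7:28741822-28741967, minus strand) and between Mrpl18 and Tcp1 (chr17:12916092-12916328, minus strand). Each is written on the strand of the gene named first, and no letters are marked.
Mrps11 to Mrpl46: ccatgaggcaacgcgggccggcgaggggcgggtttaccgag
Mrpl30 to Mitd1: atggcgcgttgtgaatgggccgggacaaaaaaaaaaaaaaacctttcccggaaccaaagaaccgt
Mrps12 to Sars2: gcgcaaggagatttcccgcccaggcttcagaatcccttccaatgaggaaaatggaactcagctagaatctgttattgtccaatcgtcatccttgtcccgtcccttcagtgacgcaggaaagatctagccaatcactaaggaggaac
Mrpl18 to Tcp1: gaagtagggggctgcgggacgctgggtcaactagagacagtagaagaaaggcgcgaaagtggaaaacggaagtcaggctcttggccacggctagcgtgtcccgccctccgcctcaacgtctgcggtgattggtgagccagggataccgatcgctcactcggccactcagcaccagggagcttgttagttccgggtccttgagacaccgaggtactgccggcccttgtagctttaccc

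All 77 members were expressed well above the filter on low counts. They had from 147 to 4736 reads per library, with a median of 880. On the length-corrected scale deposited by the authors (FPKM, fragments per kilobase of transcript, scaled to library size), the median member had 27.6, 21.5 and 25 FPKM in NRK-2 KO and 35.5, 39.9 and 29.9 FPKM in Control. Mrpl42 had the highest mean level (196 FPKM), followed by Mrps21 (147 FPKM), Mrpl30 (140 FPKM), Mrpl33 (130 FPKM), Mrpl18 (96.1 FPKM) and Mrpl51 (78.6 FPKM). The lowest means belonged to Mrpl17 (4.77 FPKM), Mrps25 (5.47 FPKM), Mrps10 (6.42 FPKM) and Mrpl19 (6.55 FPKM). Proteins that stand in the same particle thus had transcript levels that differed widely.

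No member passed the test between genotypes, yet their fitted changes all had the same sign. In edgeR's quasi-likelihood test, adjusted after Benjamini and Hochberg over 14466 genes, 0 of 77 members were called lower (background 1.09% of genes) and 0 were called higher (background 2.61%), where 535 genes (3.7%) were called in all. The lowest adjusted p among them was 0.0612, for Mrps35. At an unadjusted p under 0.05, 56 of 77 members were lower (background 13.5%) and 0 were higher (background 12.3%). DESeq2, run as an alternative, called 35 members lower (background 9.19%) and 0 higher (background 7.71%). The fitted log2 fold change was below 0 for 77 of 77 members, against 49% of all genes. Its median was -0.66 over the members and 0.01 over all genes, and it ran from -1.21 for Mrps35 to -0.07 for Mrpl52. Without the library labelled KO 1, the members called stayed at 0, 52 had an unadjusted p under 0.05 (all below 0, background 10.7%) and the median was -0.75. The share of all genes called in that fit is not given here, so its count of 0 says little about the members in particular. In bulk tissue, fewer cells of a type and less RNA per cell cannot be told apart.

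The 6 libraries did not fall into 2 even groups. Summed over the 77 members, the level was 2782, 1966 and 2604 CPM in NRK-2 KO and 4472, 4495 and 2912 CPM in Control. Control 1 and Control 2 were both above every NRK-2 KO library in 77 of 77 members (background 29.4%). Control 3 was the lowest Control library in 77 of 77 (background 44.3%), and KO 2 was the lowest of all 6 libraries in 70 of 77 (background 23.8%). In 39 of 77 members each NRK-2 KO library was below each Control library (background 14.5%), and in 0 members each was above (background 16.4%). Without KO 1 the count of such lower members was 59 (background 18.8%). The heat map of levels by library shows the 2 high columns of Control 1 and Control 2, the pale column of Control 3 and the dark column of KO 2.

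**Figure D1:**
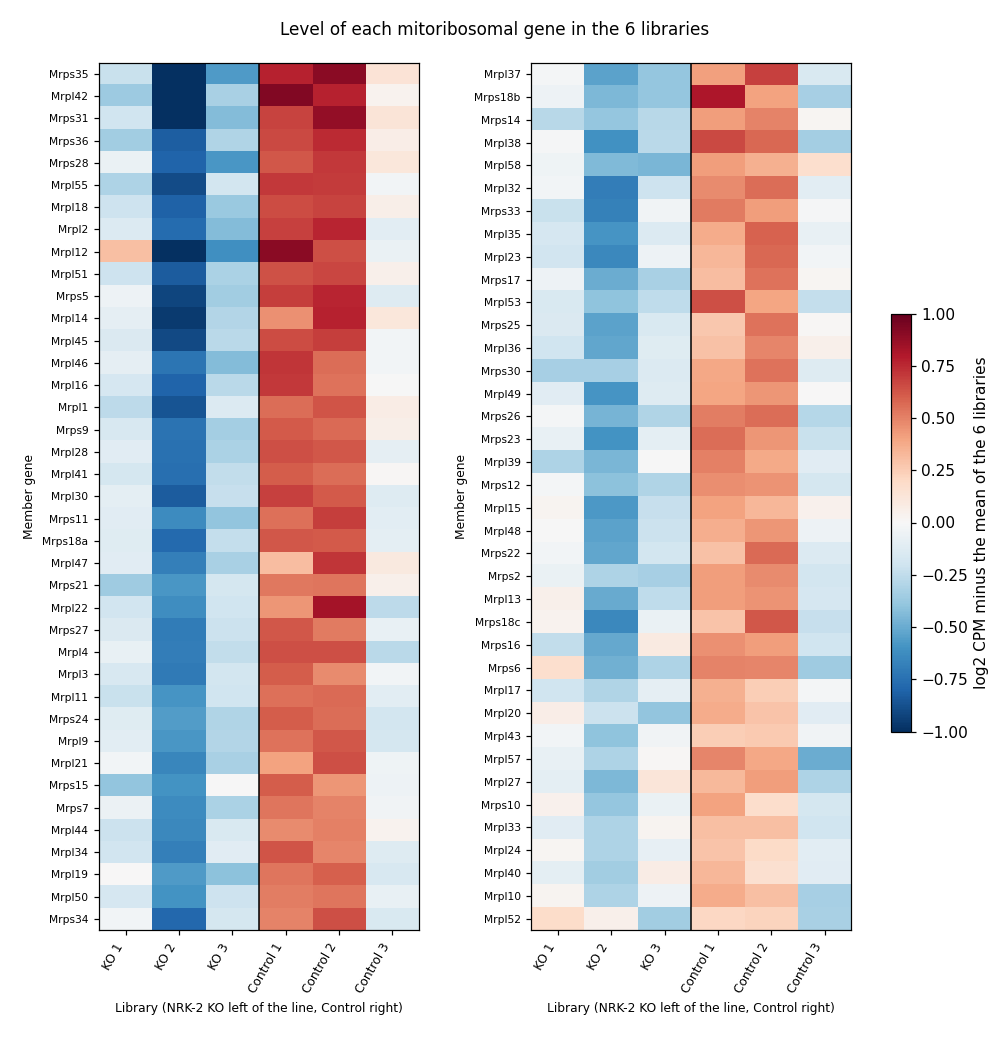
Level of each of the 77 members in each library, as log2 CPM minus the mean over the 6 libraries, with NRK-2 KO columns left of the line and Control columns right of it; rows run from the lowest to the highest fitted fold change, and colours saturate at -1 and 1. KO 2 is the lowest library in 70 members, and Control 3 is the lowest Control library in all 77.

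Whether members passed the test turned on Control 3. Without it, 64 of 77 members were called lower by edgeR's quasi-likelihood test at an adjusted p under 0.05 (background 12.9%) and 0 were called higher (background 11.6%), with a median log2 fold change of -0.84. With any other library left out in its place, 0 members were called, and between 21 and 52 had an unadjusted p under 0.05. The 52 were found without KO 1, where 10.7% of all genes were lower at that threshold. Calls over all genes also changed with the library left out, being most without Control 3 and fewest without KO 3, as given further on. The counts of 0 therefore say little about the members in particular. All 35 members that DESeq2 called in the 6 libraries were among the 64. The 64 are most of the 77 members and both fits share libraries, so this overlap gives no separate support. KO 2 also had the lowest cardiomyocyte marker sum of all 6 libraries (28913 CPM), and Control 3 had the lowest of the Control libraries (53913 CPM). The members' sum was 5.98%, 6.80% and 5.34% of the cardiomyocyte marker sum in NRK-2 KO and 4.89%, 5.22% and 5.40% in Control. On that scale the groups overlapped, with KO 3 below Control 3. The part of cell type composition in the members' lower values was not tested.

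**Figure D2:**
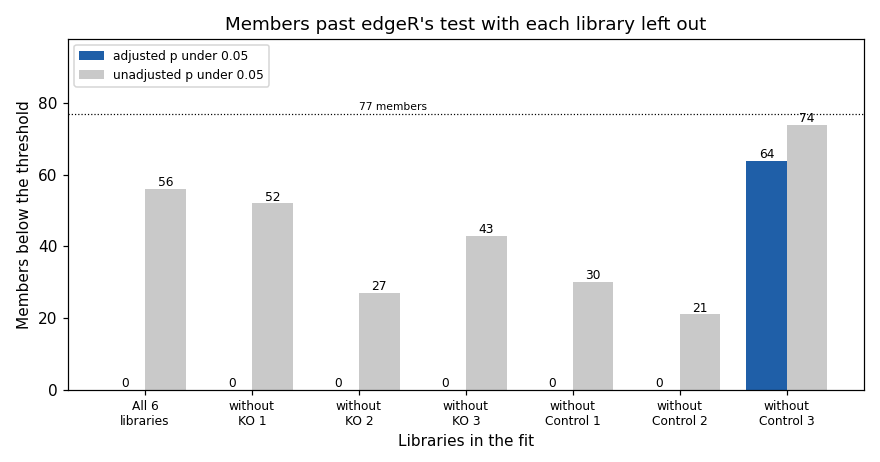
Number of the 77 members below an adjusted p of 0.05 (blue) and an unadjusted p of 0.05 (grey) in edgeR's quasi-likelihood test with all 6 libraries and with each library left out. The adjusted count is 64 without Control 3 and 0 in each of the 6 other fits.

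The 4 subunit classes had nearly the same median. The median log2 fold change was -0.68 for the bacterial-type large subunit, -0.63 for the mitochondria-specific large subunit, -0.66 for the bacterial-type small subunit and -0.63 for the mitochondria-specific small subunit. An unadjusted p under 0.05 was reached by 23 of 30, 15 of 20, 12 of 16 and 5 of 10 members of these classes, all with a fitted value below 0. The numbers with each NRK-2 KO library below each Control library were 15, 11, 7 and 5 in the same order. Over all genes tested, 13.5% were lower at an unadjusted p under 0.05 and 14.5% had each NRK-2 KO library below each Control library. Within each class the spread from gene to gene was much wider than the differences between class medians. Across the 77 members, log2 fold change and log2 mean FPKM had a Pearson r of -0.27 and a Spearman rho of -0.25. With log2 mean CPM the r was -0.40 and the rho -0.32, and with log2 transcript length they were -0.02 and -0.03. These are across genes measured in the same libraries and are given as descriptions.

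**Figure D3:**
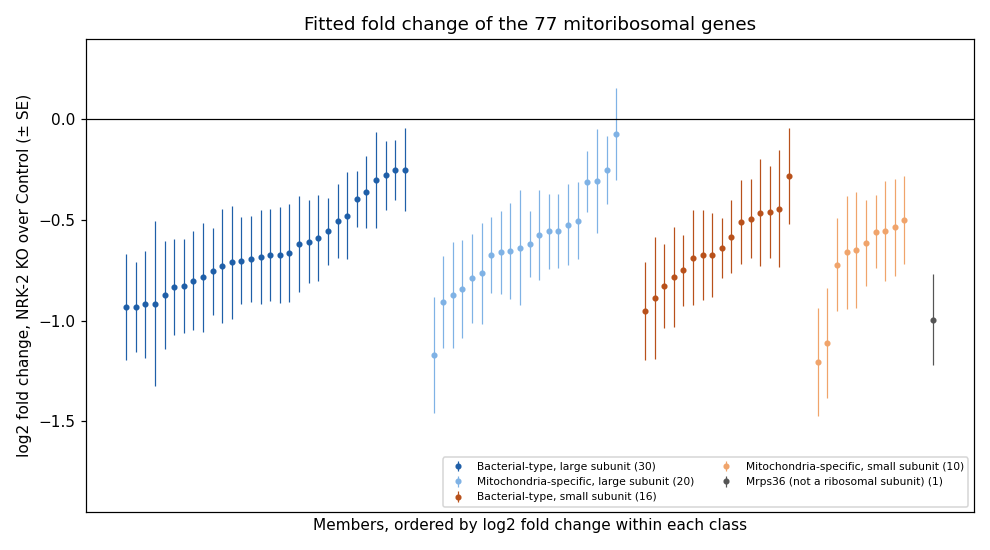
Fitted log2 fold change (NRK-2 KO over Control) of each member with its standard error, ordered within each subunit class. All 77 points lie below 0, from -1.21 (Mrps35) to -0.07 (Mrpl52), and the classes overlap.

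Among the small-subunit proteins, Mrps35 had the lowest fitted value. Mrps35 (gene ID 232536, chr6:147042770-147070902, mm10), a mitochondria-specific protein of the small subunit, had 40.7, 23.5 and 32.2 CPM in NRK-2 KO and 81.0, 89.0 and 52.2 CPM in Control. The groups did not overlap, and Control 3 stood nearer to KO 1 than to the other Control libraries. Means were 32.1 ± 8.61 CPM in NRK-2 KO and 74.1 ± 19.4 CPM in Control (SD, n = 3 libraries each). The log2 fold change was -1.21 (SE 0.27), with an adjusted p of 0.0612 in edgeR's quasi-likelihood test.

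Mrps31 (gene ID 57312), another mitochondria-specific small-subunit protein, had 33.7, 18.6 and 28.6 CPM in NRK-2 KO and 61.7, 71.0 and 42.2 CPM in Control. Again no NRK-2 KO library reached a Control library. Its log2 fold change was -1.11 (SE 0.27), with an adjusted p of 0.0714 by edgeR. Mrps25, of the same class, whose locus overlaps that of Nr2c2, had 29.98, 22.9 and 29.9 CPM in NRK-2 KO and 40.03, 48.3 and 33.5 CPM in Control, with a log2 fold change of -0.56 (SE 0.18). Its groups did not overlap either, although KO 1 and Control 3 were close.

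Of the small-subunit proteins with bacterial relatives, 3 were among the 8 members with the lowest p. Mrps14 (gene ID 64659, chr1:160195215-160201186, mm10), the relative of bacterial S14, had 28.4, 26.3 and 28.4 CPM in NRK-2 KO and 46.02, 48.5 and 34.8 CPM in Control. The 3 NRK-2 KO libraries were almost level, and all lay below Control 3. Its log2 fold change was -0.64 (SE 0.15), with an adjusted p of 0.0668 by edgeR. Mrps21, the relative of bacterial S21, had 46.1, 39.5 and 52.3 CPM in NRK-2 KO and 85.0, 85.7 and 61.2 CPM in Control, with a log2 fold change of -0.75 (SE 0.18). Mrps9, the relative of bacterial S9, had 55.6, 37.1 and 49.2 CPM in NRK-2 KO and 95.2, 91.9 and 64.5 CPM in Control, with a log2 fold change of -0.83 (SE 0.21). In both genes the groups did not overlap and Control 3 was the lowest Control library. Mrps28 had a log2 fold change of -0.95 (SE 0.24), from means of 18.9 ± 5.15 CPM in NRK-2 KO and 36.6 ± 7.62 CPM in Control (SD, n = 3 libraries each).

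Mrps10, the relative of bacterial S10, stood at the other end of its class. It had 6.91, 5.15 and 6.43 CPM in NRK-2 KO and 8.88, 7.61 and 5.96 CPM in Control. Here Control 3 lay below KO 1 and KO 3, so the groups overlapped. The log2 fold change was -0.28 (SE 0.24), with an adjusted p of 0.499 by edgeR, and it was 0.18 when the gene's most abundant transcript alone was counted.

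Bacterial S18 has 3 mitochondrial relatives, and these sit at different places in the particle. Mrps18a, a large-subunit protein, had 34.98, 22.2 and 32.1 CPM in NRK-2 KO and 58.2, 58.0 and 35.5 CPM in Control. Mrps18b, a small-subunit protein counted as mitochondria-specific, had 18.0, 13.7 and 14.3 CPM in NRK-2 KO and 32.6, 24.7 and 14.8 CPM in Control. Mrps18c, the small-subunit protein in the place of bacterial S18, had 18.6, 11.6 and 17.3 CPM in NRK-2 KO and 22.2, 27.9 and 15.5 CPM in Control. The groups did not overlap for Mrps18a and did for the other two, in which KO 1 was above Control 3. Their log2 fold changes were -0.76 (SE 0.25), -0.65 (SE 0.29) and -0.46 (SE 0.27), and the differences among them were not tested.

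Mrpl42 had both the highest level and the lowest fitted value of the large-subunit members. This mitochondria-specific protein (gene ID 67270, chr10:95480806-95501927, mm10) had 95.1, 59.1 and 97.3 CPM in NRK-2 KO and 232, 208 and 125 CPM in Control. No NRK-2 KO library reached a Control library, and Control 3 was nearer to KO 3 than to Control 2. The means were 83.8 ± 21.4 CPM in NRK-2 KO and 188 ± 56.3 CPM in Control (SD, n = 3 libraries each), with a log2 fold change of -1.17 (SE 0.29) and an adjusted p of 0.0720 by edgeR. Mrpl51, also mitochondria-specific, had 99.98, 64.97 and 92.6 CPM in NRK-2 KO and 179.6, 184 and 119.6 CPM in Control, with a log2 fold change of -0.91 (SE 0.23). Its groups did not overlap.

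Large-subunit proteins of bacterial type had log2 fold changes between -0.93 and -0.25. Mrpl18 (gene ID 67681, chr17:12911355-12916091, mm10), whose bacterial relative L18 binds rRNA, had 77.4, 50.9 and 68.9 CPM in NRK-2 KO and 141, 142 and 92.9 CPM in Control. Its groups did not overlap, and its log2 fold change was -0.93 (SE 0.22) with an adjusted p of 0.0690 by edgeR. Mrpl55 had a log2 fold change of -0.93 (SE 0.26), with 36.3, 24.1 and 39.5 CPM in NRK-2 KO and 73.5, 73.1 and 44.2 CPM in Control, and its groups did not overlap. Mrpl30, the relative of bacterial L30, had 87.9, 53.0 and 80.1 CPM in NRK-2 KO and 151, 144 and 85.9 CPM in Control. KO 1 lay above Control 3 in this gene, and the log2 fold change was -0.78 (SE 0.27).

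Mrpl33, one of the most abundant members, showed a smaller difference. It had 56.4, 49.4 and 62.2 CPM in NRK-2 KO and 75.4, 75.2 and 53.1 CPM in Control. KO 1 and KO 3 were both above Control 3, and the log2 fold change was -0.28 (SE 0.17) with an adjusted p of 0.350 by edgeR. The least abundant member per length, Mrpl17, had 28.3, 26.4 and 30.4 CPM in NRK-2 KO and 41.6, 38.5 and 31.9 CPM in Control, with a log2 fold change of -0.40 (SE 0.14). In Mrpl17 the groups were apart by a narrow gap. Mrpl19, whose locus overlaps that of Gcfc2, had means of 26.2 ± 5.51 CPM in NRK-2 KO and 41.5 ± 10.9 CPM in Control (SD, n = 3 libraries each), with a log2 fold change of -0.66 (SE 0.24).

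The stalk proteins, which in bacteria recruit the translation factors, had different fitted values. Mrpl12, which forms the stalk and is also known in human cells to bind the mitochondrial RNA polymerase, had 21.9, 7.92 and 11.6 CPM in NRK-2 KO and 33.4, 27.8 and 17.0 CPM in Control. KO 1 lay above Control 3, and the spread within NRK-2 KO was among the widest of the named members. Its log2 fold change was -0.92 (SE 0.41), with an adjusted p of 0.216 by edgeR, and without KO 1 it was -1.42 with an adjusted p of 0.143. Mrpl10, the protein at the base of the stalk, had 45.7, 36.2 and 43.3 CPM in NRK-2 KO and 58.0, 55.2 and 35.7 CPM in Control, where Control 3 was the lowest of all 6 libraries. Its log2 fold change was -0.25 (SE 0.21). The difference between Mrpl12 and Mrpl10 was not tested.

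The other values nearest 0 belonged to Mrpl24, Mrpl40 and Mrpl52. Mrpl24 (its locus overlaps that of Rrnad1) and Mrpl40 each had a log2 fold change of -0.25 (SE 0.15 and 0.17). Mrpl52 (gene ID 68836, chr14:54426909-54429750, mm10), a mitochondria-specific large-subunit protein, had 13.0, 11.8 and 8.98 CPM in NRK-2 KO and 13.2, 13.3 and 9.09 CPM in Control. The groups overlapped, and KO 3 and Control 3 were the lowest libraries. Its log2 fold change was -0.07 (SE 0.23), with an adjusted p of 0.872 by edgeR, and the sign was positive with scaling to library total only, by limma on FPKM, and without Control 1, Control 2 or KO 3.

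Mrps30, which sits in the large subunit, had 28.5, 28.5 and 32.6 CPM in NRK-2 KO and 46.8, 52.2 and 32.7 CPM in Control. KO 3 and Control 3 were almost equal, and the log2 fold change was -0.56 (SE 0.19). Mrps36 (gene ID 66128, chr13:100735940-100744659, mm10), the component of alpha-ketoglutarate dehydrogenase, had 27.2, 19.6 and 28.2 CPM in NRK-2 KO and 54.8, 58.2 and 36.4 CPM in Control. The groups did not overlap, and the log2 fold change was -0.99 (SE 0.23), with an adjusted p of 0.0639 by edgeR. How the authors divided reads between Mrps36 and its pseudogenes is not known here.

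Proteins of the same particle that carry other names had similar values. Of 6 such symbols tested, Ict1 is a second symbol of the member Mrpl58. By edgeR's quasi-likelihood test 0 of the 6 were called (background 3.7%). An unadjusted p under 0.05 was reached by 6, all below 0 (background 13.5%). DESeq2 called 5 (background 9.19% lower and 7.71% higher). The median log2 fold change was -0.83. Dap3, a GTP-binding protein of the small subunit, averaged 54.5 ± 4.82 CPM in NRK-2 KO and 93.6 ± 18.9 CPM in Control (SD, n = 3 libraries each), with a log2 fold change of -0.78 (SE 0.17). Ptcd3, an RNA-binding protein of the small subunit, averaged 111 ± 23.1 CPM in NRK-2 KO and 211 ± 41.6 CPM in Control (SD, n = 3 libraries each), with a log2 fold change of -0.93 (SE 0.22). Mrpl58 shares its gene ID 68572 with the symbol Ict1 in the table. This gene, a peptidyl-tRNA hydrolase built into the large subunit, was looked at after its values were seen, and had a log2 fold change of -0.62 (SE 0.16) under the symbol Mrpl58 and -0.76 (SE 0.18) with both symbols joined.

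Genes for building the mitochondrial ribosome were examined next. Of 29 assembly and rRNA modification genes tested, 28 were fitted below 0 with a median log2 fold change of -0.63. By edgeR's test 2 fell (background 1.09%), and DESeq2 called 12 (background 9.19% lower and 7.71% higher). Malsu1, which takes part in assembly of the large subunit, had 8.88, 8.20 and 10.7 CPM in NRK-2 KO and 19.8, 18.5 and 15.2 CPM in Control. Gtpbp10, a GTPase of large-subunit assembly, had 25.1, 21.1 and 23.8 CPM in NRK-2 KO and 37.4, 36.0 and 34.7 CPM in Control. In both genes every Control library lay above every NRK-2 KO library. The log2 fold changes were -0.94 (SE 0.18, adjusted p = 0.0427) for Malsu1 and -0.63 (SE 0.12, adjusted p = 0.0417) for Gtpbp10 by edgeR's quasi-likelihood test. Both calls were lost without any 1 of the libraries other than Control 3, with adjusted p of 0.139 and 0.114 without KO 1 and up to 0.178 and 0.171 without Control 2.

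None of 17 translation factors and none of 14 genes of mitochondrial DNA upkeep and transcription were called by edgeR (background 3.7%). An unadjusted p under 0.05 was reached by 10 and 9, all below 0 (background 13.5%). DESeq2 called 7 and 5 of them (background 9.19% lower and 7.71% higher). Their median log2 fold changes were -0.65 and -0.56. Tufm, the elongation factor that brings aminoacyl-tRNA to the ribosome, averaged 99.3 ± 27.3 CPM in NRK-2 KO and 192 ± 51.2 CPM in Control (SD, n = 3 libraries each). Lrpprc, which stabilises mitochondrial mRNAs, averaged 187 ± 42.7 CPM in NRK-2 KO and 347 ± 73.3 CPM in Control (SD, n = 3 libraries each). Tfam, which packages and transcribes mitochondrial DNA, averaged 42.4 ± 5.31 CPM in NRK-2 KO and 65.2 ± 8.17 CPM in Control (SD, n = 3 libraries each). Their log2 fold changes were -0.95 (SE 0.28), -0.89 (SE 0.23) and -0.62 (SE 0.15), and none passed the test.

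The members were then set beside the nuclear-encoded partners of the proteins that their ribosome makes, and beside the ribosome of the cytosol. Of 61 nuclear genes for subunits of complexes I, IV and V, 61 were fitted below 0 with a median log2 fold change of -1.004. By edgeR's test 2 fell (background 1.09%), and DESeq2 called 59 (background 9.19% lower and 7.71% higher). Summed FPKM of the members was 11.6%, 13.3% and 11.6% of that of these subunits in NRK-2 KO and 9.40%, 9.36% and 10.4% in Control. The 3 NRK-2 KO values were all above the 3 Control values, with Control 3 between the other Control libraries and NRK-2 KO. An exact permutation test of 3 against 3 libraries cannot go below a two-sided p of 0.1. Of 75 cytosolic ribosomal protein genes, 29 were fitted below 0 and 46 above, with a median log2 fold change of 0.05. By edgeR 0 were called (background 3.7%), and DESeq2 called 1 (background 9.19% lower and 7.71% higher). An unadjusted p under 0.05 was reached by 4 (background 13.5% lower and 12.3% higher). Summed FPKM of the members was 10.6%, 7.62% and 11.1% of that of the cytosolic proteins in NRK-2 KO and 18.2%, 18.0% and 11.7% in Control, where Control 3 stood close to KO 3. The plot of medians by library shows the cytosolic list near 0 in every library, and the medians of the mitochondrial lists lower in each NRK-2 KO library than in each Control library.

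**Figure D4:**
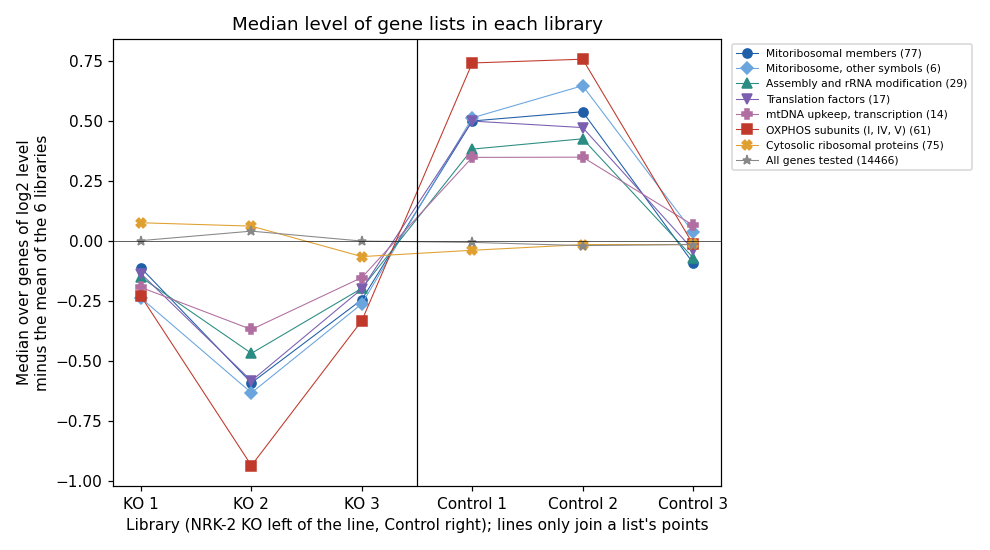
Median over the genes of each list of the log2 level minus the mean of the 6 libraries, with NRK-2 KO libraries left of the line and Control libraries right of it. The mitochondrial ribosomal members stand at -0.11, -0.59 and -0.24 in NRK-2 KO and at 0.50, 0.54 and -0.09 in Control; lines only join the points of a list.

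The genes that start back to back with a member did not share its values as a rule. Of 23 such neighbours that were tested and are no members, 13 were fitted below 0 and 10 above, with a median log2 fold change of -0.02, where the members beside them had a median of -0.67. None of the 23 was called by edgeR (background 3.7% of genes). Mrps11 and Mrpl46, both members and separated by 42 bases, had log2 fold changes of -0.78 (SE 0.25) and -0.84 (SE 0.24). Mitd1, 66 bases from Mrpl30 and active at the end of cell division, had 7.77, 7.95 and 6.94 CPM in NRK-2 KO and 5.30, 4.48 and 7.34 CPM in Control, with a log2 fold change of 0.40 (SE 0.25) beside -0.78 for Mrpl30. Tcp1, a subunit of the cytosolic chaperonin and 238 bases from Mrpl18, had a log2 fold change of -0.23 (SE 0.15) beside -0.93. Sars2, the mitochondrial seryl-tRNA synthetase and 147 bases from Mrps12, had 6.46, 5.12 and 6.10 CPM in NRK-2 KO and 14.8, 11.997 and 7.83 CPM in Control, with a log2 fold change of -0.97 (SE 0.27) beside -0.51 for Mrps12. The difference within a pair was not tested.

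**Figure D5:**
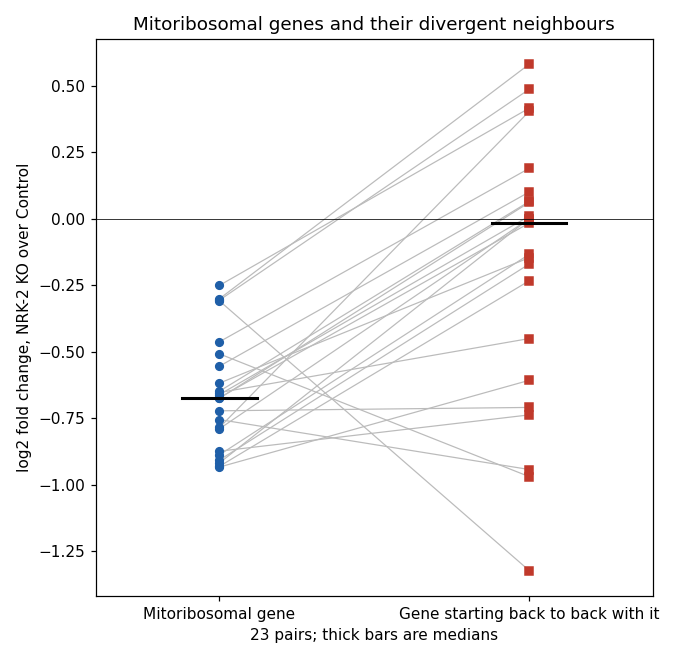
Fitted log2 fold change (NRK-2 KO over Control) of 23 members (left) and of the gene that starts back to back with each (right), joined by lines; thick bars are medians. The medians are -0.67 for the members and -0.02 for the neighbours.

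The promoter motifs did not separate members by fold change. Members with the NRF1 motif in the window had a median log2 fold change of -0.69, and those without it had -0.64. For the ETS-type motif the medians were -0.57 and -0.67, for the YY1 motif -0.70 and -0.64, and for any of the 3 motifs -0.65 and -0.66. Mrpl51 and Mrpl52, printed above with the same ETS-type motif, had -0.91 and -0.07, and Mrpl12 and Mrpl44, with the NRF1 motif, had -0.92 and -0.67 (SE 0.19).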

How the data were processed

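The authors deposited 1 table of 36780 RefSeq transcripts (mm10) that gives, per the file headers, read counts and FPKM in 6 libraries, and each transcript's length as another property. A kit for stranded total RNA was used, per the labels' protocols. HISAT2 and Bowtie2 are named without versions, per the submitters' processing notes. The sources used here do not say how reads were counted, with which annotation, or with or without strand. The deposited FPKM followed from counts, length and library total (ratio 0.967 to 0.988 for the first to the last percentile).

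Counts were summed per gene symbol and tested by the quasi-likelihood test of edgeR 4.0.16 under R 4.3.3 (TMM, filterByExpr, Benjamini-Hochberg adjustment over 14466 genes, threshold 0.05). SE is the fold change divided by the root of F. CPM uses library total times TMM factor, and depth ran from 22377348 to 33086384 reads, whose counting error is small beside the spread between libraries (median chi-square from 3.77 to 16.6 per gene, against 0.455 for counting error). The fit was also run on simulated counts, which held no shifts shared by many genes of a library. That run therefore cannot speak to such shifts in the real libraries. Deviations of same-numbered libraries from their group means had correlations of mixed sign (0.29, -0.30 and -0.34). Pairs of unlike number ran from -0.49 (KO 2 and Control 1) to 0.56 (KO 2 and Control 3). Alternatives were DESeq2 1.42.0, limma 3.58.1 on log2(FPKM + 1) or log2(FPKM + 0.1), other scalings and filters, the most abundant transcript only, a block for the library number and leaving out each library.

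The members and lists were chosen with earlier results of these data known. Named members are the 8 with the lowest p, the 6 highest and 4 lowest by FPKM, the 6 highest and 6 lowest fold changes, the Mrps18 genes, Mrpl12, Mrps30 and Mrps36. Mrpl58, Mrpl44, Mrps11, Mrpl46, Mrps12 and the neighbours named were chosen after their values were seen. Mitochondrially encoded genes were not analysed here.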

Additional observations from a re-analysis of the deposited data

How the results depend on the processing

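The members called lower were 35 by DESeq2 (background 9.19%), 3 with scaling to library total only (background 1.52%) and 1 with a mean of at least 5 CPM (background 2.05%). By limma they were 5 on log2(FPKM + 0.1) (background 2.22%) and 7 on log2(FPKM + 1) (background 2.54%). With 1 library left out they were between 0 and 64 (64 without Control 3, background 12.9%). They were 0 under relative log expression or upper quartile scaling, with no filter, with the most abundant transcript only, in the fit with a replicate block and among members overlapping no other symbol (the last chosen after seeing the data). Members called higher were 0 throughout. The median log2 fold change ran from -0.84 to -0.54 with 1 library left out and from -0.68 to -0.51 elsewhere. Scaling to library total moved the median of all genes to 0.11, and relative to it the members' median was -0.65. All genes called numbered 2445 by DESeq2, 872 by limma on log2(FPKM + 1), 6 with the replicate block and from 3 (without KO 3) to 3628 (without Control 3). Members lower in every NRK-2 KO library numbered 39 to 77 with 1 library left out (77 without Control 3, background 29.4%; 59 without KO 1, background 18.8%).

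DESeq2 called 5 genes of other mitoribosome symbols, 12 of assembly, 7 of translation factors, 5 of mitochondrial DNA upkeep, 59 of oxidative phosphorylation and 1 cytosolic ribosomal gene. Its background was 9.19% lower and 7.71% higher. With 1 library left out these lists had 0 to 5, 0 to 16, 0 to 13, 0 to 7, 0 to 60 and 0 to 2 calls. In each case the most were without Control 3, where the background was 12.9% lower and 11.6% higher. With the replicate block, assembly and oxidative phosphorylation had 0. The library numbers are shared only as numbers, and a call lost under the block is not a weaker effect.

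Of 529 alternative values of 34 named genes, 439 kept direction and side of the threshold, 66 were newly past it (23 without Control 3, 18 by DESeq2), 17 no longer passed and 7 changed sign. Mrps10 was 0.18 with the most abundant transcript only. Mrpl52 was 0.049 with library total only (-0.06 relative to all genes), 0.035 and 0.034 by limma with offsets of 0.1 and 1, and -0.23 to 0.055 with 1 library left out, above 0 without Control 1, Control 2 or KO 3. The cause was not tested. Depth limits little here, since each member had at least 147 reads in each library.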

Other observations

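Transcripts of a member did not all follow the gene's sum, which was looked at after the values were seen. Mrps14 has 2 transcripts in the table. The less abundant one took 6.9%, 7.8% and 5.1% of the Mrps14 reads in NRK-2 KO and 21.4%, 17.2% and 29.7% in Control, and the 2 groups did not overlap. The more abundant one had 13.1, 12.8 and 13.3 FPKM in NRK-2 KO and 16.1, 17.9 and 12.9 FPKM in Control. On that scale every NRK-2 KO library was below Control 1 and Control 2, and Control 3 lay between KO 2 and KO 1. The rule by which shared reads were split among transcripts is not known here, which makes such shares less certain than gene sums.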
